A study of Mus musculus with 6 samples.

Results

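The genes described here are the Wnt ligands, receptors and modulators of the mouse kidney. They were taken by gene symbol: the families Wnt, Fzd, Sfrp, Dkk, Rspo and Lgr4 to Lgr6, together with Axin1, Axin2, Lef1, Tcf7, Tcf7l1, Tcf7l2, Lrp5, Lrp6, Znrf3, Rnf43, Wif1, Porcn, Ror1, Ror2, Ryk and Ctnnb1. Of 60 rows with such a symbol 56 had values, out of 19503 rows with values in the table. Wnt3a, Dkk4, Rspo2 and Rspo4 had none. RNA came from whole kidneys of mice 8 weeks old, in 2 groups of 3 libraries. The first group, called NICD2_Pax8, had the genotype R26NICD2/+pax8cre, in which the Rosa26 locus carries an allele encoding active Notch2, its intracellular domain, which works without a ligand, and a Pax8 driver, active in renal tubule epithelium, switches it on. The second was labelled wild type (WT). The titles of the WT libraries begin with NICD, which leaves it unsettled whether those mice held an undriven copy of the allele. The driver is pax8cre in the labels but Pax-rtTA in the title of the series. No label says that each library came from its own animal, so p-values measure the spread between these libraries, which may be technical.

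Wnt proteins are secreted, lipid-modified signals. In the canonical branch a Wnt bound to a Frizzled receptor and an Lrp5 or Lrp6 co-receptor stops the Axin complex from marking beta-catenin for destruction, and beta-catenin then works with TCF and LEF factors on target genes, while other branches signal through Ror and Ryk receptors and planar cell polarity proteins. Members of the secreted Dkk and Sfrp families and Wif1 can restrain the pathway. R-spondins, acting through Lgr receptors, protect Frizzled receptors from the E3 ligases Znrf3 and Rnf43. In the developing kidney Wnt9b and Wnt4 drive the formation of nephrons and Wnt7b shapes the medulla.

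Values are FPKM, fragments scaled to transcript length and library size, as deposited by the authors. A row named NOTCH2 in capitals, whose nature the file does not give, stood at 500.5 to 570.4 FPKM in NICD2_Pax8 kidneys and at 1.27 to 3.75 FPKM in WT kidneys, and the annotated gene Notch2 at 12.2 to 13.4 FPKM against 4.19 to 5.55 FPKM. The libraries held about 15900000 to 17600000 fragments in the NICD2_Pax8 group and 14700000 to 15200000 fragments in the WT group, as estimated from how low FPKM values are spaced. WT replicate 1 stood apart. Its 8 markers of adrenal cortex summed to 3707 FPKM, against 1.47 to 1.72 FPKM in the NICD2_Pax8 libraries and 1.46 to 1.77 FPKM in the other WT libraries, and its 7 adipocyte markers to 4425 FPKM, against 65.8 to 413 FPKM and 156 to 900 FPKM. The tubule itself differed too: 10 of 10 proximal tubule markers fell in NICD2_Pax8 kidneys, with and without scaling. Over all genes tested, 16.2% were lower unscaled and 27.0% scaled. The summed level of the markers was 148 to 4681 FPKM against 59873 to 91031 FPKM. Most of the WT sum was 1 gene, Kap, at 55466 to 84655 FPKM. By the ratio of means, single markers ran from 0.0207 of the WT level, for Slc22a8, to 0.341, for Slc5a12. Of 9 macrophage markers 7 were higher, with and without scaling, against 45.1% of all genes tested unscaled and 27.6% scaled. The summed level of the 9 was 521 to 624 FPKM against 120 to 338 FPKM. In whole kidneys, fewer cells of a type and less RNA per cell cannot be told apart.

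In NICD2_Pax8 kidneys the transcripts of 3 Wnt ligands, Wnt7b, Wnt5b and Wnt9b, the Frizzled receptor Fzd7, the R-spondin receptor Lgr4 and the Dickkopf proteins Dkk3 and Dkk1 were higher than in WT kidneys. Sfrp1, Sfrp2, Dkk2 and the acyltransferase Porcn were lower. Of the 56 genes 33 reached 1 FPKM in at least 3 libraries and were tested. The 33 were fitted with limma on log2(FPKM + 1) and called at a Benjamini-Hochberg adjusted p under 0.05 over 13500 genes. Of them 24 were higher (72.7%), against a background of 45.1% of all genes tested, and 4 were lower (12.1%), against 16.2%. Among the 24, Wnt9b, Fzd3, Dkk1 and Rnf43 reached the filter only through NICD2_Pax8 libraries. With no filter 37.5% of all 56 were higher, against 32.6% of all rows. For each of the 28 called genes the 3 libraries of one group all lay above those of the other. They were called on these same values, so this adds no support to the calls. Over all tested genes, called or not, the groups did not overlap for 49.9% upward and 18.8% downward. Over all 56 genes, tested or not, the groups did not overlap for 27 upward and 9 downward, as they did for 39.0% and 16.5% of all rows with values. The median log2 fold change of the 33 was 0.52, against 0.32 for all tested genes.

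The balance of higher and lower genes depended on scaling. After median-of-ratios scaling, which takes the median of all genes from 0.32 to 0.00, 14 of the 33 were higher (42.4%, background 27.6%) and the same 4 were lower (12.1%, background 27.0%), with a median of 0.29. The 14 were Wnt5b, Wnt7b, Wnt9b, Fzd6, Fzd7, Fzd8, Lrp5, Ror1, Ryk, Dkk1, Dkk3, Lgr4, Axin1 and Ctnnb1. These 14 also kept their unscaled calls in every fit without 1 library in which they were tested, and 2 of them, Wnt9b and Dkk1, were under the filter in some of those fits. The other 10 that were higher on unscaled values, Fzd1, Fzd2, Fzd3, Fzd4, Fzd5, Lrp6, Rnf43, Znrf3, Tcf7l1 and Tcf7l2, did not pass after scaling, and each lost its unscaled call without at least 1 library. Without NICD2_Pax8 replicate 3 the count was 13 higher and 2 lower, and without NICD2_Pax8 replicate 2 it was 15 higher, with 29 of the 33 tested in each case. The tested genes are not a neutral sample of the 56, since Wnt9b, Fzd3, Dkk1 and Rnf43 reached the filter only through NICD2_Pax8 libraries. Fitted with no filter, 21 of all 56 were higher (37.5%) and 6 lower (10.7%), close to the background of 32.6% and 12.2% of 19503 rows.

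**Figure D1:**
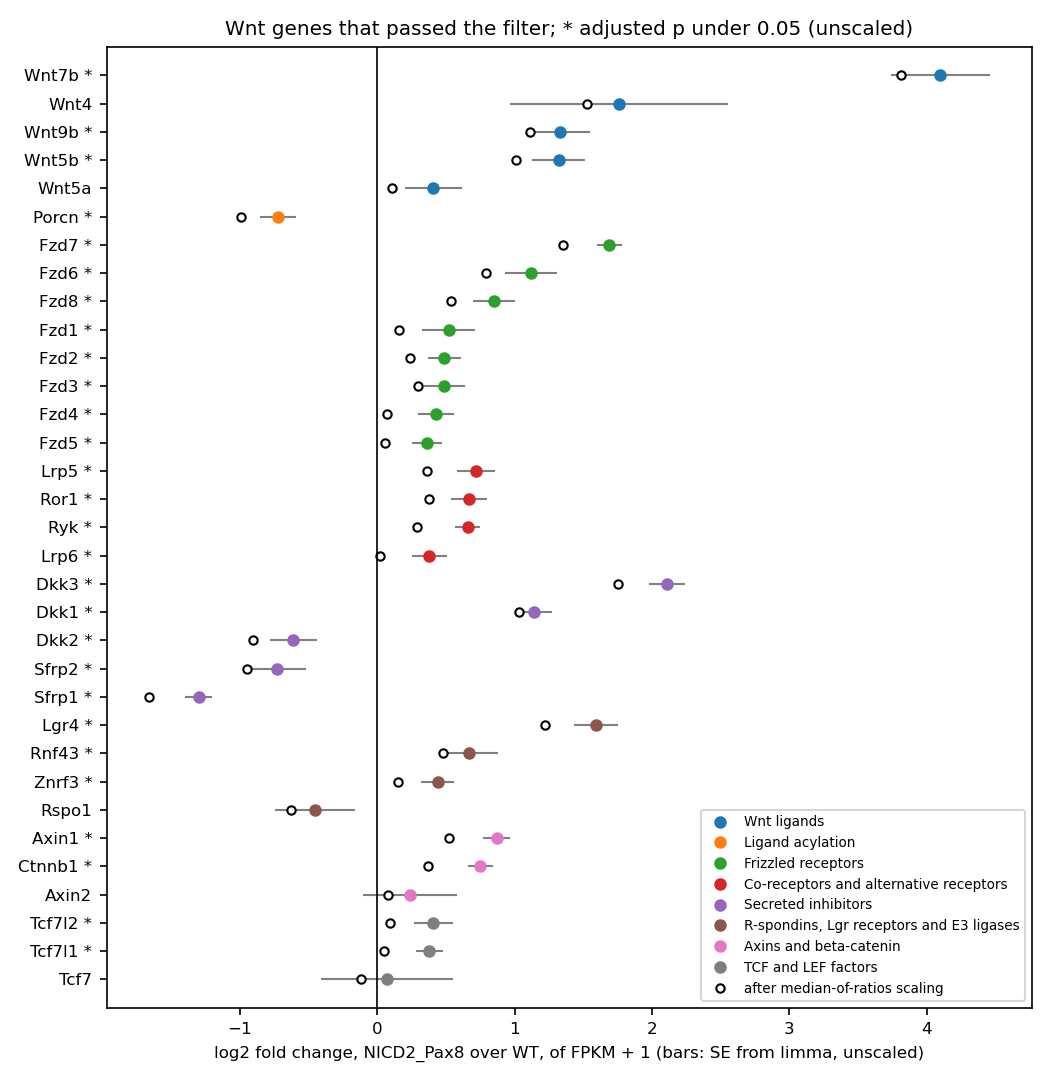
Log2 fold change of FPKM + 1, NICD2_Pax8 over WT, on the x axis for the 33 tested genes, grouped by role; filled points are unscaled values with the limma SE, open points values after median-of-ratios scaling, and stars mark unscaled calls. Wnt7b stands at 4.10 and Sfrp1 at -1.30. Scaling moves every gene to the left by construction, and Lrp6 comes to 0.02. It divides NICD2_Pax8 libraries by 1.133 to 1.171 and WT libraries by 0.8264 to 0.9463.

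To show the bases around gene starts beside the values below, promoter sequence was read for the called genes that moved most among those with a promoter entry. The windows run from 250 bases before to 50 bases after a start in RefSeq, build GRCm38.p6, 5′ to 3′ on the gene's strand. Entries were found for 38 of the 56 genes. Wnt7b, the largest rise, and Sfrp1, the largest fall, had none, nor had Dkk3 and Porcn. By the rule for showing them these are the 3 largest rises, Wnt9b, Fzd7 and Lgr4, and the falls, Dkk2 and Sfrp2, among called genes with an entry. Dkk1 was added after its matches were seen. Capitals mark matches to TGGGAA (core of RBPJ, the DNA-binding partner of Notch), CTTTGA (core of TCF and LEF factors) or CACGTG (the E-box bound by Hes and Hey factors) on either strand, with overlapping matches allowed.
Wnt9b, chr11:103749772-103750071, minus strand: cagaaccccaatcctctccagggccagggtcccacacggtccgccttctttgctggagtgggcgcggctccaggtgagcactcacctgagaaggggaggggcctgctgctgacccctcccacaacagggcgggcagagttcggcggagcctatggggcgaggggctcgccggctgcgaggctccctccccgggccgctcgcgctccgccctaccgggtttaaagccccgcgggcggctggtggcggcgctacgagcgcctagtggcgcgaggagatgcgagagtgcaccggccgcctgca
Fzd7, chr1:59481897-59482196, plus strand: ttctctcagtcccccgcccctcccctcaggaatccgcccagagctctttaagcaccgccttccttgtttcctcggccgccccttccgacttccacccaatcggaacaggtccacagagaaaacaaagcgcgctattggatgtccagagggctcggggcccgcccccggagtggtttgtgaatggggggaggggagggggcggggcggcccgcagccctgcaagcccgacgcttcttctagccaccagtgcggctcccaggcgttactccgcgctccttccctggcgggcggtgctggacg
Lgr4, chr2:109917397-109917696, plus strand: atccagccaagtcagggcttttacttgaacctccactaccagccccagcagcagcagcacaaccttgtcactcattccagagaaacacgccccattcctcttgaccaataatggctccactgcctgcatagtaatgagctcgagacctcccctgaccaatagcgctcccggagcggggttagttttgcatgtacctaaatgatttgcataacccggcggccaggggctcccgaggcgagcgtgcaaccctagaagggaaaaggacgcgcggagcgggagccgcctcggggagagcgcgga
Dkk1, chr19:30549447-30549746, minus strand: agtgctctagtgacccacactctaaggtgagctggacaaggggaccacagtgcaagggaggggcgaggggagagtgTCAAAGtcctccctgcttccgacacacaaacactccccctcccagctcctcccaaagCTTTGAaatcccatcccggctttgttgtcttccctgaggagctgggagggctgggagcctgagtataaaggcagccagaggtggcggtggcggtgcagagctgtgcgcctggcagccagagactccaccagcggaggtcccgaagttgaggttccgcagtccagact
Dkk2, chr3:132085042-132085341, plus strand: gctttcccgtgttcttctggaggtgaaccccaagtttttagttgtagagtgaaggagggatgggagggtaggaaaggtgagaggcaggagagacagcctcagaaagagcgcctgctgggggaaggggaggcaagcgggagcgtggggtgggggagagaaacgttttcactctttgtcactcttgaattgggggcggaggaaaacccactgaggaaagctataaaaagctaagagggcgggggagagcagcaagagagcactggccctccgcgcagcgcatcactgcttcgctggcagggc
Sfrp2, chr3:83766071-83766370, plus strand: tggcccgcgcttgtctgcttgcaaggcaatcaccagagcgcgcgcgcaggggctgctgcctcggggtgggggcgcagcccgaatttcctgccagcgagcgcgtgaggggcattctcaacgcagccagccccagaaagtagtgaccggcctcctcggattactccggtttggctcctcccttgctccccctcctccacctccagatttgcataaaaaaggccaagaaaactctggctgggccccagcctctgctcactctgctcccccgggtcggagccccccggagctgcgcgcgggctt

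The windows shown by the rule held no match. The Dkk1 window, added for its matches, held TCAAAG, which is CTTTGA on the other strand, 174 bases before the start. It also held CTTTGA 117 bases before the start. Among called genes whose windows are not shown, Fzd1 and Ror1 held CTTTGA and Tcf7l1 held TGGGAA. Over the 38 genes with an entry, 5 windows held TGGGAA (13.2%, against 25.6% of 32851 promoter windows of the same length), 4 held CTTTGA (10.5%, against 16.0%) and 3 held CACGTG (7.89%, against 7.15%). The Wnt9b window lies at a start 25451 bases inside the gene model of the file, and those of Dkk2 and Sfrp2 lie 368 and 571 bases from the 5′ ends of theirs. These matches describe letters only.

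Among the ligands, Wnt7b (gene 22422, chromosome 15, 85535437 to 85581821 in GRCm38) had by far the highest level in NICD2_Pax8 kidneys. NICD2_Pax8 replicates 1 to 3 held 44.2, 34.8 and 29.4 FPKM of it, against 0.32, 2.63 and 1.02 FPKM in WT replicates 1 to 3. The groups lay far apart, and the WT libraries differed among themselves by more than the NICD2_Pax8 libraries did relative to their level. The means of 36.1 ± 7.5 and 1.32 ± 1.18 FPKM (SD, n = 3 each) gave a 27.3-fold difference. The log2 fold change was 4.10 (SE 0.36, limma adjusted p = 0.000183). With 1 library left out at a time, the fold ran from 19.8, without WT replicate 1, to 53.9, without WT replicate 2. Wnt9b (gene 22412), a ligand of the ureteric bud and collecting duct, stood at 3.45, 3.06 and 2.01 FPKM in NICD2_Pax8 kidneys and at 0.25, 0.88 and 0.47 FPKM in WT kidneys, a log2 fold change of 1.33 (SE 0.22, limma adjusted p = 0.002). Wnt5b (gene 22419), a ligand best known from the branches without beta-catenin, stood at 6.60, 7.95 and 8.59 FPKM against 1.81, 3.43 and 2.40 FPKM in WT kidneys, 3.03-fold higher (log2 fold change 1.32, SE 0.19, limma adjusted p = 0.00124). Its close relative Wnt5a, a ligand of stromal cells, did not pass, at 4.72, 4.60 and 5.03 FPKM against 3.24, 4.81 and 2.33 FPKM (limma adjusted p = 0.124), though it did without WT replicate 2 (limma adjusted p = 0.022).

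Wnt4, which in the embryo turns mesenchyme into nephron epithelium and in the adult is made in several tissues, including the adrenal cortex, depended on a single library. It stood at 8.87, 7.35 and 6.96 FPKM in NICD2_Pax8 kidneys, against 9.51, 0.33 and 0.20 FPKM in WT kidneys, so that WT replicate 1 lay above all others and WT replicates 2 and 3 far below. Over all 6 libraries it did not pass (log2 fold change 1.76, SE 0.79, limma adjusted p = 0.0937). Without WT replicate 1 it was 29.2-fold higher in NICD2_Pax8 kidneys (log2 fold change 2.78, limma adjusted p = 0.000108), and with scaling and without that library the log2 fold change was 2.56 (limma adjusted p = 0.000168). WT replicates 2 and 3 then rest on about 18 and 11 fragments, against 451 to 519 in the NICD2_Pax8 libraries.

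The other 13 ligands with values were under the filter. The largest of their values in NICD2_Pax8 kidneys was 1.23 FPKM, for Wnt11. Wnt2, at 1.06, 0.84 and 0.32 FPKM against 0.14, 0.14 and 0.17 FPKM, was higher with no filter (limma adjusted p = 0.0323). Wnt10a was lower with no filter, at 0.14, 0.06 and 0.06 FPKM against 0.52, 0.67 and 0.22 FPKM (limma adjusted p = 0.0303), on 2 to 4 estimated fragments per NICD2_Pax8 library. Wnt1, Wnt7a and Wnt8a were listed at 0 in all WT libraries and reached at most 0.08 FPKM in NICD2_Pax8 libraries. Wnt9a, at 0.47 to 0.73 FPKM against 0.25 to 0.45 FPKM, did not overlap between the groups, and Wnt16, at 0.15 to 0.19 FPKM against 0.22 to 0.39 FPKM, lay the other way; neither was called with no filter. Wnt3, Wnt8b and Wnt10b stayed at 0.09 FPKM or less in NICD2_Pax8 libraries and at 0.1 FPKM or less in WT libraries.

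The make-up of the ligand transcripts differed between the groups. Summed over the 18 ligands, FPKM came to 71.5, 61.7 and 54.6 in NICD2_Pax8 kidneys and to 22.0, 15.7 and 8.62 in WT kidneys. Wnt7b made up 61.8%, 56.4% and 53.7% of the sum in NICD2_Pax8 libraries, against 1.45%, 16.8% and 11.8% in WT libraries. In WT replicates 2 and 3 the leading ligands were Wnt5a, with 30.7% and 27.0%, and Wnt5b, with 21.9% and 27.8%, while in WT replicate 1 Wnt4 made up 43.2% and Wnt2b 18.1%. Of 9 principal cell markers of the collecting duct 4 were higher and 2 lower in NICD2_Pax8 kidneys, or 4 higher and 4 lower after scaling, against 45.1% and 16.2% of all genes tested unscaled and 27.6% and 27.0% scaled. In that list none was at 0 in all libraries, and their summed level was 144 to 194 FPKM against 175 to 231 FPKM. Their part in the ligand values was not tested.

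**Figure D2:**
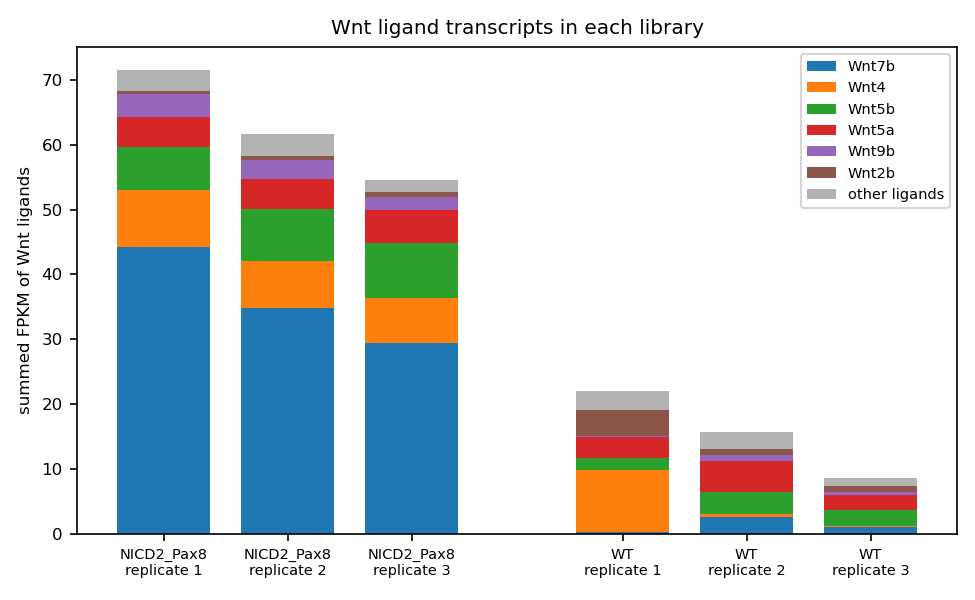
Stacked FPKM of the Wnt ligands on the y axis for each library, NICD2_Pax8 libraries on the left and WT libraries on the right. Wnt7b fills over 53% of each NICD2_Pax8 bar, and the WT bars, which reach 22.0 FPKM at most, are led by Wnt4 in replicate 1 and by Wnt5a and Wnt5b in the others.

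Porcn (gene 53627, chromosome X), the membrane-bound acyltransferase that attaches the lipid needed for Wnt secretion, fell. It stood at 1.44, 1.80 and 1.92 FPKM in NICD2_Pax8 kidneys and 3.41, 3.22 and 3.82 FPKM in WT kidneys, 2.03-fold lower, with no overlap (log2 fold change -0.72, SE 0.13, limma adjusted p = 0.00286). Wls, the carrier that takes acylated Wnt to the cell surface, was 80.3, 81.0 and 79.2 FPKM against 53.5, 69.0 and 63.8 FPKM. Its log2 fold change of 0.37 (limma adjusted p = 0.0267) came to -0.01 after scaling (limma adjusted p = 0.976).

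All 8 Frizzled receptors that were tested were higher in NICD2_Pax8 kidneys on unscaled values, against 45.1% of all genes tested, and 3 of them, Fzd7, Fzd6 and Fzd8, also after scaling, against 27.6%. Fzd3 had passed the filter only through NICD2_Pax8 libraries. Fzd7 (gene 14369, chromosome 1, 59482147 to 59486955), whose promoter window is printed above, stood at 18.7, 17.4 and 18.4 FPKM against 4.96, 4.71 and 5.10 FPKM in WT kidneys. Its libraries varied little within each group, and the 3.69-fold difference gave a log2 fold change of 1.69 (SE 0.09, limma adjusted p = 4.97e-05). Fzd6, a receptor tied to planar polarity, stood at 12.3, 9.02 and 11.6 FPKM against 5.11, 5.22 and 3.36 FPKM, 2.41-fold higher (limma adjusted p = 0.00213). Fzd8 stood at 5.62, 6.64 and 7.43 FPKM against 2.58, 3.48 and 3.53 FPKM (limma adjusted p = 0.00282), and lost its call when scaling was combined with leaving out WT replicate 1 (limma adjusted p = 0.0629) and with quantile normalization (limma adjusted p = 0.0874).

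Fzd4 and Fzd1, the most abundant Frizzleds of the WT kidney, passed on unscaled values alone. Fzd4, the receptor for norrin in vessels, stood at 19.3, 17.9 and 20.03 FPKM against 12.03, 16.6 and 13.3 FPKM, and its log2 fold change of 0.43 (limma adjusted p = 0.027) became 0.07 after scaling. Fzd1 stood at 15.3, 17.3 and 20.1 FPKM against 8.81, 13.4 and 13.9 FPKM, with 0.52 (limma adjusted p = 0.0487) becoming 0.16. Of 10 endothelial markers 8 were lower in NICD2_Pax8 kidneys, or 10 after scaling, and none higher. Over all genes tested, 16.2% were lower unscaled and 27.0% scaled. None of the 10 markers was at 0 in all libraries, and their summed level was 119 to 153 FPKM against 259 to 288 FPKM. Their part in the level of Fzd4 was not tested. Both Frizzleds turned slightly negative, at -0.08 for Fzd4 and -0.09 for Fzd1, with scaling and without WT replicate 1. Fzd5 stood at 4.31, 4.29 and 4.74 FPKM against 3.55, 3.14 and 3.07 FPKM, and its log2 fold change of 0.36 (limma adjusted p = 0.0277) became -0.04 with quantile normalization. Fzd2 stood at 2.49, 2.49 and 2.08 FPKM against 1.35, 1.53 and 1.29 FPKM (limma adjusted p = 0.0124), and Fzd3 at 1.67, 1.21 and 1.52 FPKM against 0.98, 0.71 and 0.58 FPKM (limma adjusted p = 0.0256), and neither passed after scaling. Fzd9 and Fzd10 were at 0.12 FPKM or less in NICD2_Pax8 libraries and under the filter. As a share of all Frizzled FPKM, Fzd7 made up 23.4%, 22.8% and 21.3% in NICD2_Pax8 libraries, against 12.4%, 9.64% and 11.5% in WT libraries.

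The co-receptor Lrp5 stood at 19.9, 23.1 and 21.7 FPKM against 15.3, 12.3 and 10.7 FPKM, 1.68-fold higher (log2 fold change 0.72, SE 0.14, limma adjusted p = 0.00462). Its partner Lrp6 stood at 23.7, 20.2 and 24.8 FPKM against 14.9, 19.2 and 18 FPKM, and its small difference (log2 fold change 0.38, limma adjusted p = 0.0416) came to 0.02 after scaling and to -0.15 with scaling and without WT replicate 1. So Lrp5 passed both ways and Lrp6 on unscaled values alone. The alternative receptors Ryk, a pseudokinase, and Ror1, a tyrosine kinase-like receptor for Wnt5a, were also higher. Ryk stood at 35.7, 33.7 and 35.1 FPKM against 23.6, 21.2 and 20.5 FPKM (limma adjusted p = 0.0011), and Ror1 at 4.27, 4.74 and 5.34 FPKM against 2.82, 2.83 and 2.23 FPKM (limma adjusted p = 0.00437). Ror1 did not pass with scaling and without WT replicate 1 (limma adjusted p = 0.0602), nor with quantile normalization (limma adjusted p = 0.0826). Ror2, at 0.63 to 0.98 FPKM against 0.80 to 1.15 FPKM, was under the filter.

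The secreted Dkk, Sfrp and Wif1 genes, grouped here as inhibitors by family, went both ways, and the most abundant of them changed. Whether each acts as an inhibitor in these kidneys was not tested. Sfrp1 (gene 20377), a Frizzled-related decoy, stood at 12, 13.8 and 12.3 FPKM in NICD2_Pax8 kidneys and at 33.7, 31.0 and 33.2 FPKM in WT kidneys, 2.57-fold lower (log2 fold change -1.30, SE 0.10, limma adjusted p = 0.000104). Dkk3 (gene 50781, chromosome 7, 112116019 to 112159482), a divergent Dickkopf made by renal tubules under stress, stood at 35.7, 45.5 and 43.0 FPKM against 8.27, 9.93 and 8.23 FPKM, 4.7-fold higher (log2 fold change 2.11, SE 0.13, limma adjusted p = 6.5e-05). Neither gene came near overlap between the groups. Dkk3 made up 66.2% to 70.6% of the FPKM of all 8 inhibitors in NICD2_Pax8 libraries, against 15.3% to 19.9% in WT libraries, and Sfrp1 20.2% to 22.2% against 61.9% to 66.1%. The sum itself was 54.0 to 66.2 FPKM against 50 to 54.2 FPKM.

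Dkk1 (gene 13380), which blocks Lrp5 and Lrp6 and is itself a known target of beta-catenin, was close to the floor in WT kidneys. It stood at 1.14, 1.34 and 1.52 FPKM in NICD2_Pax8 kidneys, about 38, 48 and 56 fragments, and at 0.10, 0.03 and 0.03 FPKM in WT kidneys, about 3, 1 and 1 fragments. The log2(FPKM + 1) scale understates such a change, and gave 1.14 (SE 0.13, limma adjusted p = 0.000501). Its level stayed far under that of Dkk3. Dkk2, another ligand of Lrp5 and Lrp6, stood at 3.59, 2.59 and 2.14 FPKM against 4.26, 5.29 and 4.54 FPKM, 1.69-fold lower (limma adjusted p = 0.0186). Sfrp2 stood at 0.64, 1.58 and 0.67 FPKM against 2.49, 1.95 and 2.13 FPKM (limma adjusted p = 0.0193), with NICD2_Pax8 replicate 2 nearest to WT. The falls of Dkk2 and Sfrp2 did not pass without NICD2_Pax8 replicate 3 (limma adjusted p = 0.0661 and 0.0752), that of Dkk2 also not without NICD2_Pax8 replicate 2 (0.0596) or WT replicate 2 (0.0671), and that of Sfrp2 also not without NICD2_Pax8 replicate 1 (0.0627).

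Wif1, Sfrp4 and Sfrp5 were under the filter. Wif1, a secreted protein that binds Wnt ligands, stood at 0.21, 0.14 and 0.38 FPKM against 0.94, 0.55 and 0.50 FPKM and was lower with no filter (limma adjusted p = 0.0386). Sfrp5 stood at 0.54, 0.77 and 0.58 FPKM against 3.02, 0.69 and 1.24 FPKM, and Sfrp4 at 0.12, 0.47 and 0.28 FPKM against 1.39, 0.58 and 0.37 FPKM, with overlapping groups. Several of these inhibitors are known from stromal cells. Of 10 tested markers of fibroblasts and stroma 4 were higher and 3 lower in NICD2_Pax8 kidneys, or 3 higher and 4 lower after scaling, against 45.1% and 16.2% of all genes tested unscaled and 27.6% and 27.0% scaled. In that list none was at 0 in all libraries, and the summed level of the list was 335 to 356 FPKM against 175 to 330 FPKM. Among them Dcn, Pdgfra and Tcf21 were lower and the collagens Col1a1, Col1a2 and Col3a1 higher, and their part in the values of the inhibitors was not tested.

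**Figure D3:**
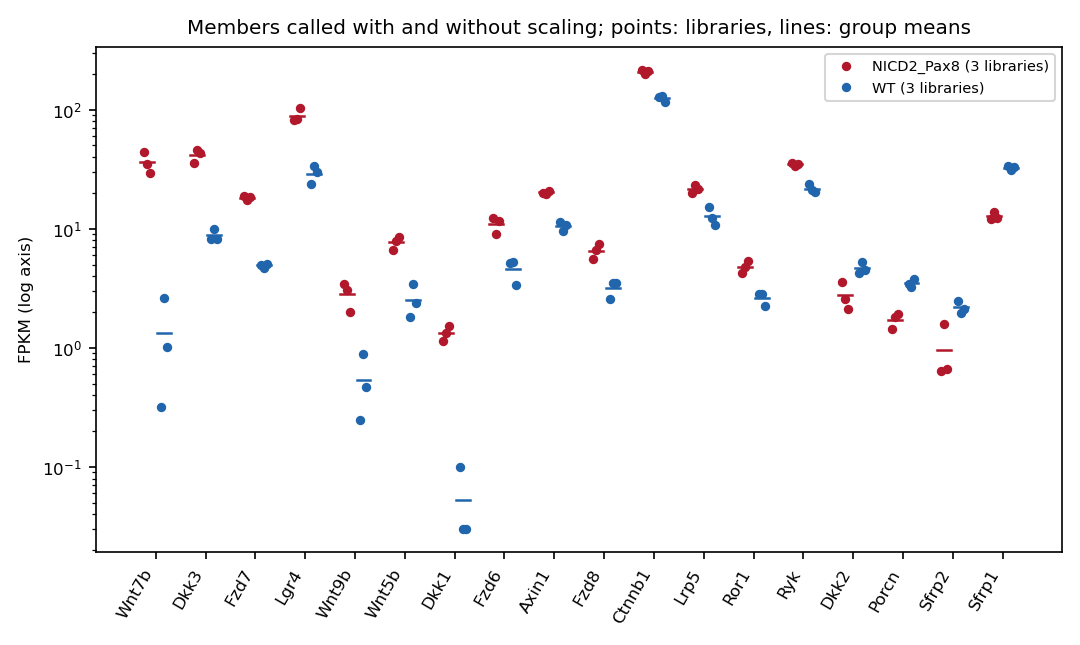
FPKM on a log axis for the 18 genes called with and without scaling, ordered from the largest rise to the largest fall; points are libraries and lines group means, NICD2_Pax8 left of WT for each gene. The 3 points of one group lie above those of the other in every gene shown, with the widest gaps for Wnt7b and Dkk1. The genes were chosen by their calls on these same values.

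Lgr4 (gene 107515, chromosome 2, 109917647 to 110014257), a receptor for R-spondins in many epithelia, was the most abundant gene of its group. It stood at 81.4, 82.6 and 103.2 FPKM in NICD2_Pax8 kidneys, against 23.6, 33.4 and 30.1 FPKM in WT kidneys, 3.07-fold higher (log2 fold change 1.59, SE 0.16, limma adjusted p = 0.000294). Lgr5, a related receptor of stem cells, stood at 0.06, 0.18 and 0.03 FPKM against 3.07, 0.15 and 0.07 FPKM, so that WT replicate 1 alone held over 1 FPKM. Lgr6, another relative, stood at 0, 0.05 and 0.03 FPKM against 0.52, 0.16 and 0.01 FPKM, and both were under the filter. The E3 ligases Rnf43 and Znrf3, which clear Frizzled from the cell surface, were slightly higher. Rnf43 stood at 1.16, 1.82 and 2.52 FPKM against 0.85, 0.93 and 0.48 FPKM (limma adjusted p = 0.0302) and Znrf3 at 3.58, 3.52 and 3.86 FPKM against 2.84, 2.24 and 2.26 FPKM (limma adjusted p = 0.0189), and neither passed after scaling. Of the R-spondins, the secreted partners of Lgr4, Rspo1 did not pass, at 0.56, 1.04 and 0.94 FPKM against 2.90, 1.00 and 1.01 FPKM (limma adjusted p = 0.214). With quantile normalization it was called lower (log2 fold change -0.80, limma adjusted p = 0.0308). Rspo3 was at 0.11, 0.10 and 0.10 FPKM, about 4 fragments in each library, against 6.62, 0.66 and 0.85 FPKM, lower than every WT library but under the filter (limma adjusted p = 0.107 with no filter).

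Beta-catenin, Ctnnb1 (gene 12387), the effector of the canonical branch and also a part of cell junctions, was the most abundant transcript of all 56 genes. It stood at 215, 199.5 and 210.1 FPKM in NICD2_Pax8 kidneys and 127, 129 and 115.8 FPKM in WT kidneys, 1.68-fold higher (log2 fold change 0.75, SE 0.09, limma adjusted p = 0.000695), and passed with 0.37 after scaling (limma adjusted p = 0.0144). Axin1, the scaffold of the destruction complex, stood at 19.9, 19.7 and 20.9 FPKM against 11.5, 9.50 and 10.8 FPKM, 1.9-fold higher (limma adjusted p = 0.000525). Axin2, a feedback inhibitor widely read as a reporter of beta-catenin activity, did not pass, at 1.17, 1.18 and 1.08 FPKM against 2.23, 0.43 and 0.29 FPKM (log2 fold change 0.24, SE 0.34, limma adjusted p = 0.567). Without WT replicate 1 it was 3.18-fold higher (log2 fold change 0.66, limma adjusted p = 0.00553).

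Among the TCF and LEF factors that bring beta-catenin to DNA, Tcf7l1 and Tcf7l2 were the most abundant. Tcf7l1 stood at 6.51, 7.25 and 6.89 FPKM against 5.30, 5.20 and 4.71 FPKM (log2 fold change 0.38, limma adjusted p = 0.018), and Tcf7l2 at 6.75, 5.09 and 5.50 FPKM against 4.20, 4.44 and 3.67 FPKM (log2 fold change 0.41, limma adjusted p = 0.036). After scaling these were 0.05 and 0.09 and did not pass, and with quantile normalization -0.04 and -0.01. Tcf7 stood at 1.13, 1.63 and 1.75 FPKM against 4.37, 0.73 and 0.43 FPKM and did not pass (limma adjusted p = 0.906). It was 2.59-fold higher without WT replicate 1 (limma adjusted p = 0.0169), but did not pass with scaling as well (log2 fold change 0.46, limma adjusted p = 0.066). Lef1 stayed at 0.46 FPKM or less in NICD2_Pax8 libraries and at 0.67 FPKM or less in WT libraries, under the filter.

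WT replicate 1 recurs in these results. In that library 7 of the 56 genes, Wnt2b, Wnt4, Lgr5, Rspo1, Rspo3, Axin2 and Tcf7, were at 1 FPKM or more and above 2.5 times the higher of the other WT libraries, a limit chosen after their values were seen. The excess was 28.8 times for Wnt4, 20.5 times for Lgr5, 7.79 times for Rspo3, 5.99 times for Tcf7, 5.19 times for Axin2, 4.1 times for Wnt2b and 2.87 times for Rspo1. The adrenal marker Nr5a1, a transcription factor of steroid-making cells, stood in it at 44.5 FPKM and at 0 in the 5 other libraries. The part of adrenal or fat tissue in the 7 genes was not tested. Leaving out this library left the counts over the tested genes at 24 higher (background 50.4%) and 4 lower (background 15.6%), with Wnt4, Axin2 and Tcf7 gained and Fzd1, Fzd4 and Lrp6 lost among the higher. With scaling as well, 14 were higher (background 30.0%) and 4 lower (background 28.7%). Lgr5, at 0.06, 0.18 and 0.03 FPKM in NICD2_Pax8 kidneys, then stood against 0.15 and 0.07 FPKM in WT replicates 2 and 3. Wnt2b, at 0.52, 0.57 and 0.75 FPKM, stood against 0.97 and 0.91 FPKM. Rspo3, at 0.11, 0.10 and 0.10 FPKM, stood against 0.66 and 0.85 FPKM, on about 4 fragments in each NICD2_Pax8 library and 22 and 29 in these WT libraries.

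**Figure D4:**
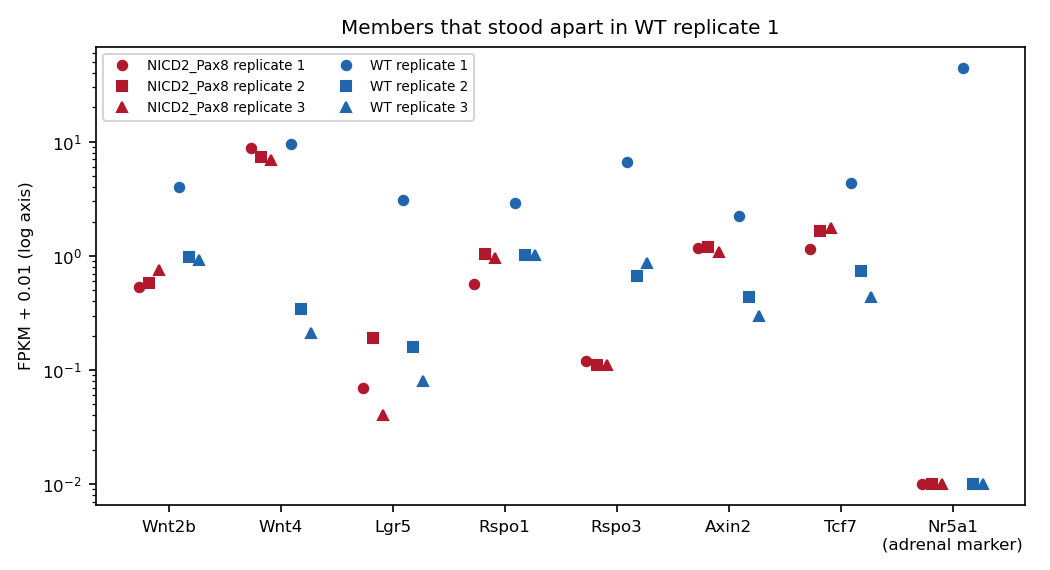
FPKM + 0.01 on a log axis in each library for the 7 genes that stood apart in WT replicate 1 and for the adrenal marker Nr5a1, NICD2_Pax8 left of WT. WT replicate 1 (filled circle on the right of each pair) lies above the other WT libraries in each gene, and for Wnt4 the NICD2_Pax8 libraries, at 6.96 to 8.87 FPKM, lie near it.

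In the authors' deposited table, whose fold changes run NICD2_Pax8 over WT and whose q-values come from DESeq2, 16 of the 56 genes were higher at a q under 0.05 (background 21.3%) and 11 lower (background 21.5%). The 16 were all among the 24 found higher here, and the 11 held all 4 found lower. In the authors' deposited table Wnt7b had a log2 fold change of 4.15 (q = 3.74e-12), Dkk1 of 3.91 (q = 2.19e-07), Fzd7 of 1.53 (q = 1.59e-30) and Sfrp1 of -1.71 (q = 1.56e-36). The other 7 that were lower there, Wnt10a, Wnt2b, Sfrp5, Wif1, Lgr5, Lgr6 and Rspo3, were under the filter here. Of them Wnt2b, Lgr5 and Rspo3 stood far higher in WT replicate 1 than in the other WT libraries, as given above. Without that library the mean of Rspo3 was still 7.31-fold lower in NICD2_Pax8 kidneys, against 1.53-fold for Wnt2b and 1.22-fold for Lgr5.

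Other machinery of the pathway was read from a list of 38 genes, of which 33 were tested. On unscaled values 22 were higher (66.7%, against 45.1% of all genes tested) and 5 lower (15.2%, against 16.2%). After scaling 13 were higher (39.4%, against 27.6%) and 8 lower (24.2%, against 27.0%). The median log2 fold change was 0.52 unscaled and 0.16 scaled. On the log2(FPKM + 1) scale the heparan sulfate carriers Sdc1 and Gpc3 had the largest rises of the list, while by the ratio of means Nkd2, an inhibitor of Dishevelled, lay between them at 7.38-fold (limma adjusted p = 0.000709). Sdc1 stood at 43.3, 31.9 and 29.0 FPKM against 3.51, 4.54 and 2.45 FPKM, 9.92-fold higher (log2 fold change 2.99, limma adjusted p = 0.0001), and Gpc3 at 116.3, 89.4 and 106.9 FPKM against 26.3, 16.98 and 13.95 FPKM, 5.46-fold higher (limma adjusted p = 0.000235). Bcl9l, a coactivator of beta-catenin, stood at 48.0, 51.8 and 46.6 FPKM against 10.5, 12.2 and 10.7 FPKM (limma adjusted p = 3.59e-05), and the corepressor Tle3 at 46.1, 51.3 and 53.0 FPKM against 19.8, 16.4 and 13.1 FPKM (limma adjusted p = 0.00028). Notum, a secreted enzyme that removes the lipid from Wnt proteins and is a feedback target of the pathway, fell to 0.63, 1.22 and 1.27 FPKM, against 7.70, 7.94 and 7.37 FPKM in WT kidneys (log2 fold change -2.10, SE 0.16, limma adjusted p = 0.000107).

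Planar cell polarity genes, which orient cells within the tubule wall, numbered 16 with 12 tested. On unscaled values 9 were higher (75%, against 45.1% of all genes tested) and 1 lower (8.33%, against 16.2%), and after scaling 8 were higher (66.7%, against 27.6%) and 2 lower (16.7%, against 27.0%). The median log2 fold change was 0.88 unscaled and 0.61 scaled. The cadherins Celsr1 and Celsr2 had the largest rises of the list on the log2(FPKM + 1) scale. Celsr2 stood at 52.1, 59.7 and 53.3 FPKM against 11.9, 16.99 and 11.96 FPKM (log2 fold change 1.95, limma adjusted p = 0.000121), and Celsr1 at 14.6, 16.6 and 16.4 FPKM against 2.80, 3.79 and 3.17 FPKM (log2 fold change 1.99, limma adjusted p = 6.82e-05). Ptk7, a Wnt co-receptor of this branch, stood at 10.1, 7.60 and 8.08 FPKM against 1.83, 2.77 and 2.03 FPKM (limma adjusted p = 0.000313), the actin regulator Daam1 at 21.3, 17.5 and 17.01 FPKM against 6.21, 5.99 and 4.94 FPKM (limma adjusted p = 0.000167), and Prickle3 at 8.19, 7.17 and 6.67 FPKM against 3.95, 2.95 and 2.23 FPKM (limma adjusted p = 0.0022). In each of these 5 genes the groups did not overlap.

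Known targets of beta-catenin outside the 56 genes numbered 24, with 19 tested. On unscaled values 10 were higher (52.6%, against 45.1% of all genes tested) and 2 lower (10.5%, against 16.2%), both near the shares of all genes. After scaling 10 were higher (52.6%, against 27.6%) and 5 lower (26.3%, against 27.0%). The median log2 fold change was 1.13 unscaled and 0.86 scaled. The 2 lower on unscaled values were Notum (log2 fold change -2.10, limma adjusted p = 0.000107) and Snai2. Snai2 stood at 1.04, 0.75 and 1.03 FPKM against 2.02, 3.07 and 2.66 FPKM (limma adjusted p = 0.00291). Notum, Apcdd1 and Nkd1 are also in the machinery list, so the counts of these lists share genes. Many genes of the target list answer to other signals as well, Sox9 to Notch among them. Ccnd1, a driver of cell division, stood at 590, 674.2 and 712 FPKM against 61.3, 98.0 and 73.5 FPKM, 8.49-fold higher (limma adjusted p = 6e-05). Sox9 stood at 25.6, 17.9 and 13.4 FPKM against 0.38, 0.35 and 0.33 FPKM (limma adjusted p = 5.45e-05), Birc5 at 49.5, 57.6 and 69.6 FPKM against 1.89, 7.51 and 2.45 FPKM (limma adjusted p = 0.000351), Cd44 at 39.9, 36.1 and 28.7 FPKM against 4.55, 1.35 and 0.81 FPKM (limma adjusted p = 0.000416) and Cldn1 at 35.7, 35.4 and 31.1 FPKM against 6.96, 7.59 and 6.53 FPKM (limma adjusted p = 3.64e-05). Of the other genes on the target list, 3 are given with values here after these were seen. Apcdd1 was higher, at 4.20, 5.63 and 4.96 FPKM against 2.44, 1.96 and 0.93 FPKM (limma adjusted p = 0.00524), while Nkd1, at 3.41, 3.48 and 3.51 FPKM against 3.69, 1.16 and 0.90 FPKM (limma adjusted p = 0.0926), and Sp5, at 6.76, 8.87 and 7.78 FPKM against 4.98, 7.63 and 6.59 FPKM (limma adjusted p = 0.222), did not pass. Without WT replicate 1 Nkd1 was higher (limma adjusted p = 0.000561).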

How the data were processed

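Libraries were made from total kidney RNA, and the FPKM per gene and library were computed by the authors, with no further scaling named, per the file headers. The authors also deposited log2 fold changes and q-values of the group comparison, from DESeq2 per the file headers; their sign matched NICD2_Pax8 over WT in 3379 of 3379 genes that differed by at least log2 1. Bowtie 0.12.2 and the build mm8 appear in the submitters' processing notes, but 15567 of 17966 gene models (86.6%) have the start and end of GRCm38 in RefSeq, so coordinates are read as GRCm38. The counting tool, and whether it used strand, is not stated by any source used here. The file holds 0 further columns of single libraries.

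Rows without values (4370 of 23873) were left out. Genes with 1 FPKM or more in at least 3 libraries (13500) were tested with limma 3.58.1 (R 4.3.3, mean-variance trend, two-sided, genotype only) on log2(FPKM + 1). Folds are ratios of mean FPKM. Tested on simulated data with 13500 genes, limma found 80% of the 100 genes given a change of log2 1 and 98% of those given log2 2. The changed genes were drawn from those with a mean log2(FPKM + 1) above 3 in WT libraries. Most of the tested Wnt genes lie under that level, and no shift of all genes was simulated. These shares therefore do not carry over to genes near the filter. Depth was read from low values of genes whose 1 transcript spans 500 to 1500 bases. With it 71.0% to 78.0% of values lay within 0.15 of a whole fragment, and the depth was chosen on the same values. A whole multiple of a depth fits about as well, and the smallest depth near the best fit was taken. Fragment numbers, given for genes with 1 transcript only, could therefore be too low by a whole factor. Alternatives were a pseudocount of 0.1, no filter, median-of-ratios scaling, quantile normalization, a replicate block and each library left out.

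The genes and lists were chosen with earlier results of these data known. Given with every library's value are called genes whose groups do not overlap, the most abundant gene of each role, and from each further list the 5 largest called changes and the most abundant gene; others are examples. Gene models of 13 of the 56 include transcripts of the authors' own.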

Additional observations from a re-analysis of the deposited data

How the results depend on the processing

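Counts are of genes higher and lower in NICD2_Pax8 kidneys at a limma adjusted p under 0.05. With median-of-ratios scaling, quantile normalization, and scaling without WT replicate 1, the higher counts were 14, 12 and 14 of the Wnt genes (24 unscaled), 3725, 3866 and 3953 of all genes (6095) and 13, 13 and 13 in the machinery list (22), and the lower counts 3642, 3558 and 3780 of all genes (2190), 8, 8 and 8 in the machinery list (5), 2, 2 and 2 in the polarity list (1) and 5, 5 and 4 in the target list (2). Leaving out 1 library gave 13 to 24 Wnt genes higher and 2 to 4 lower, 4604 to 6644 and 1625 to 2062 of all genes, and 0 to 1 polarity genes lower; without an NICD2_Pax8 library 29 of the Wnt genes were tested, as the filter still asked for 3 libraries. Direction turned for Fzd1 (-0.09), Fzd4 (-0.08) and Lrp6 (-0.15) with scaling without WT replicate 1, for Fzd5 (-0.04), Axin2 (-0.11), Tcf7 (-0.27), Tcf7l1 (-0.04) and Tcf7l2 (-0.01) with quantile normalization, and for Tcf7 also with scaling (-0.12) and without WT replicates 2 and 3 (-0.16 to -0.29); the cause was not tested. The labels do not say whether replicate numbers pair the samples. Same-numbered libraries deviated together with correlations of 0.0951, -0.0498 and 0.0056, and NICD2_Pax8 replicate 3 correlated most with WT replicate 2 (0.2). With 3 libraries per group these correlations cannot settle whether the samples were paired. The replicate block gave 19 Wnt genes higher and 4 lower, and 5818 and 2164 of all genes. Fzd8 and Ror1, called after scaling, were not called with quantile normalization. That setting called Rspo1 lower, with 5 Wnt genes lower. The pseudocount of 0.1 took the call from Fzd1 alone. The log2 fold change of Tcf7 was 0.66, and passed, without WT replicate 1, but was 0.46 and did not pass with scaling as well. Genes under 1 FPKM rest on few fragments, which limits what can be seen of most Wnt ligands.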

Other observations

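Members of 3 ligand pairs lie next to each other in the genome, in GRCm38. Wnt9b (chromosome 11, 103727362 to 103775272) and Wnt3 (chromosome 11, 103774175 to 103818021) overlap by 1098 bases on opposite strands in the file's models. Wnt9b stood at 2.01 to 3.45 FPKM in NICD2_Pax8 kidneys and 0.25 to 0.88 FPKM in WT kidneys, while Wnt3 stood at 0.04 to 0.09 FPKM and 0 to 0.05 FPKM. Whether the counting used strand is not given in the sources used here, so fragments in the overlap cannot be assigned to either gene. Wnt6 and Wnt10a lie 6696 bases apart on chromosome 1. In NICD2_Pax8 kidneys Wnt6 stood at 0.07 to 0.13 FPKM and Wnt10a at 0.06 to 0.14 FPKM, against 0.04 to 0.78 FPKM and 0.22 to 0.67 FPKM in WT kidneys. Wnt10b and Wnt1 lie 11650 bases apart on chromosome 15, and neither passed 0.08 FPKM in any library.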
